A study of Mus musculus with 6 samples.

Results

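The caveolins and cavins are the 7 mouse genes for the coat proteins of caveolae, the flask-shaped pits of the plasma membrane. They were taken by symbol from the annotation of the promoter arrays: 3 caveolins (Cav1, Cav2 and Cav3) and 4 cavins, which the arrays list under the older symbols Ptrf (Cavin1), Sdpr (Cavin2), Prkcdbp (Cavin3) and 2310039E09Rik (Cavin4). These were 7 of 16839 gene symbols with a probe, and all of them were among the 16533 genes that could be tested. The study asked which promoters the DNA-binding protein TEAD4 occupies in C2C12 myotubes, the multinucleate cells formed when this mouse myoblast line is moved to low serum. There were 2 TEAD4 samples, from cells infected with a retrovirus for TEAD4 carrying a Flag-HA tag, and 1 control sample, from cells infected with the empty vector. Both kinds of cells were selected with puromycin as populations, kept for 5 days in 2% horse serum, fixed for 10 min in 0.4% formaldehyde and precipitated with an antibody against Flag. Each sample was hybridised to a set of 2 array designs, 6 arrays in all, with precipitated (IP) DNA in Cy5 and input DNA in Cy3.

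Caveolins are hairpin proteins that sit in the inner leaflet and bind cholesterol, and cavins are cytoplasmic proteins that bind phosphatidylserine and assemble over them. Cav1 and Cavin1 are needed for caveolae in most cell types, while Cav3 and Cavin4 are the muscle members, and caveolae are abundant in muscle, where they buffer membrane stretch. TEAD factors bind the MCAT element, CATTCC or GGAATG on the other strand, and muscle promoters often hold it together with E-boxes, CANNTG, the element of the myogenic bHLH factors.

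The antibody is directed at the tag, so endogenous TEAD4 was not what it precipitated, and the arrays measured genomic DNA, so neither the level of tagged TEAD4 nor the myotube state could be checked from them. The duplicates are nowhere said to come from separate cultures, so p-values measure only the spread between these samples, which may be technical. That spread was pooled largely over all genes of an array design. The control arrays and those of each duplicate were scanned on separate occasions, and only the control arrays were extracted with an extended dynamic range. Scan, extraction setting and group therefore cannot be told apart. The control also had wider ratios: the SD over all windows was 0.38 and 0.40 for the duplicates and 1.04 for the control, in log2 of IP over input. The IP channel of its arrays stood at a median of 1.84 and 2.04 times local background, that of the TEAD4 arrays at 3.63 to 5.41 times. The small number of arrays, 6, limits the precision.

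The 7 genes were covered by 225 probes, of which 0 were flagged or saturated and 217 were well above background on every array of their design. Cavin1 lay on design 2 and the other genes on design 1. Between 28 and 40 probes covered each gene from about 5 kb upstream of the annotated start to about 2.5 kb inside it. Cavin4 was the exception, with 18 probes between -390 and 2398 bp. Cav1 and Cav2 are neighbours on chromosome 6, and the array places their starts 25030 bp apart, so no probe served both.

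Promoter sequence is shown for the genes that span the range of the measurements: Cavin4, which had the largest TEAD4 ratio of the family, Cavin1, whose promoter holds the TEAD element, and Cav2, which had the smallest. Each is the stretch of 250 bases before the start in RefSeq on GRCm38.p6, 5′ to 3′ on the gene's strand, with CATTCC and CANNTG in capitals. Of Cav3 a site of 30 bases past its start is shown, with GGAATG in capitals. They lie at chr4:48663264-48663513 (plus strand), chr11:100970618-100970867 (minus strand), chr6:17280935-17281184 (plus strand) and chr6:112459511-112459540 (plus strand). The array coordinates below are of a build not given in the sources used here and cannot be set against these.
Cavin4: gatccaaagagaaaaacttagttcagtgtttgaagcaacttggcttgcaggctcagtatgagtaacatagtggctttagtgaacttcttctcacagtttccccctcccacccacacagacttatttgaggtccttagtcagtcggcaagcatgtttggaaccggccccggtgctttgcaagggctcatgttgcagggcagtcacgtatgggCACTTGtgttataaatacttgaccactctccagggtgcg
Cavin1: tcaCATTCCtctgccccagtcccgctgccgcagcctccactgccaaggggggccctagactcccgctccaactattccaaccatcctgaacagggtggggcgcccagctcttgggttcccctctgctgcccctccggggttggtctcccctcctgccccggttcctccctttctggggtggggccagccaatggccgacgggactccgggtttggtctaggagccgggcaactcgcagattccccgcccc
Cav2: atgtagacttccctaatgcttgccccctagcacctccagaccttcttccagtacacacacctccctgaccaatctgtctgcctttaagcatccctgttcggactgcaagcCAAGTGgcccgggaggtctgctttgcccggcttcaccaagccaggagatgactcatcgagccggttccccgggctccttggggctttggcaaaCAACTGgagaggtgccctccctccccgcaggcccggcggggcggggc
Cav3 site: ggtggctggcagGGAATGccaggtctcctc

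RefSeq held promoters of 6 of the 7 genes, from 250 bases before to 50 after the start, and Cavin3 is the gene without one. GGAATG, read on both strands, was in the promoters of Cav3 and Cavin1 and in 14.7% of all 32851 promoters. Counted by gene, 16.6% of 27025 genes had it in a promoter. In Cav3 it starts at position 19, counting the start as 1, and in Cavin1 its reverse form starts at -247. CANNTG, which is its own reverse complement in its fixed letters, was in 72.3% of all promoters and, counted by gene, in 75.0% of genes. Cavin4 has CACTTG at -39. Cav2 has CAAGTG at -140 and CAACTG at -47, Cav3 has CATGTG at -174 and CAGCTG at -106, and the promoters listed for Cav1 have CAACTG at -57 and CAGGTG at -158. Cavin1 has no CANNTG in this window, and Cavin2 has neither motif. These matches are a description of letters, not binding sites.

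TEAD4 enrichment over input reached at least 2-fold in both TEAD4 samples at all 4 cavins and at the muscle caveolin Cav3. The windows that passed were centred inside the gene at Cavin2, Cavin3 and Cav3, upstream of the start at Cavin1 and on both sides of it at Cavin4. By the mean of the duplicates Cavin4 had the largest ratio, followed by Cavin3 and Cavin1, but the duplicates of these genes overlapped each other. With normexp background correction Cavin1 (1.32) was above Cavin3 (1.12). Cav1 had 1 window at 2-fold in TEAD4 sample 2 and 0 in TEAD4 sample 1, and Cav2 had 0 in either. A window here joins a probe to all others within 500 bp of it, 3 probes or more, and its value is the mean log2 of IP over input, with a standard deviation (SD) over the duplicates. Such a 2-fold window in each duplicate was found in 5.19% of all 16533 genes. The median top window, the window of the highest TEAD4 mean, was 1.15 over the 7 genes and 0.40 over all genes. A top window is a maximum and tends to rise with the number of windows, whose median was 32 over the 7 genes and 25 over all genes. It is chosen by the TEAD4 values, which favours an excess over the control in it. In the control sample all 7 genes had a 2-fold window too, as did 85.6% of all genes. Each array's median was subtracted, so 0, called input here, is the array median. Before that the control's medians were -0.64 and -0.55, and those of TEAD4 lay between -0.02 and 0.01. The centring thus raised the control's ratios, and its 2-fold windows were not counted without it.

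**Figure D1:**
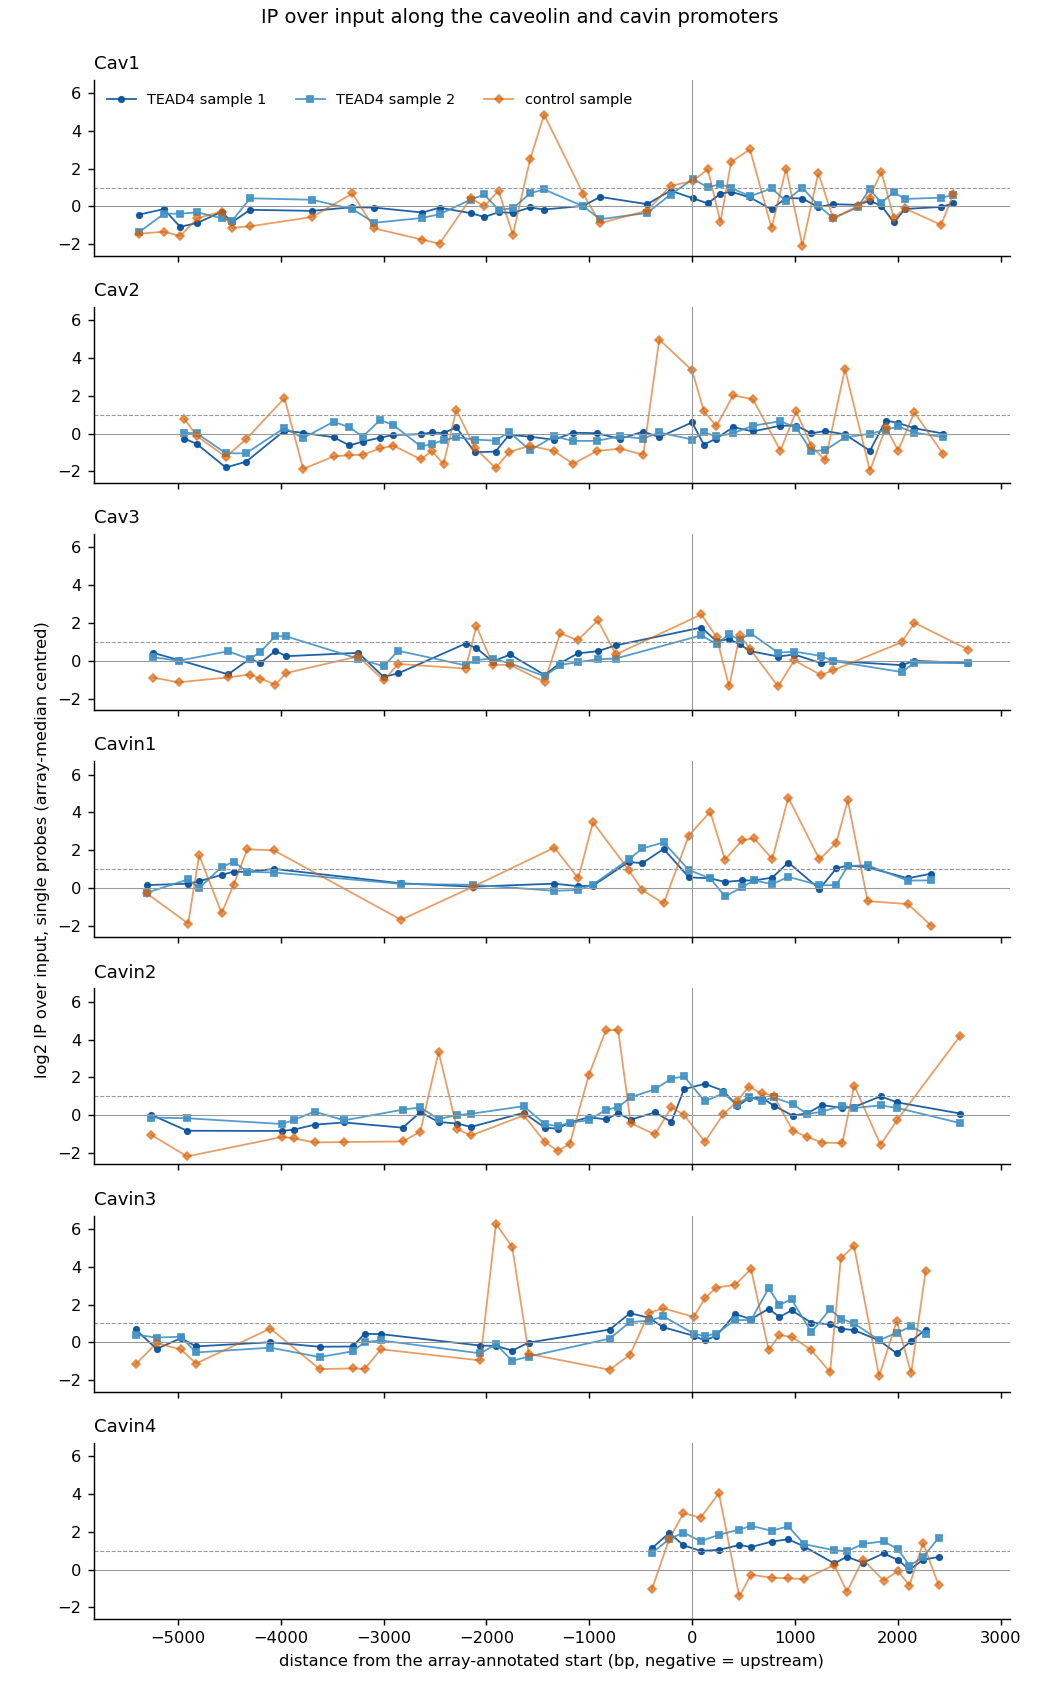
Log2 IP over input of single probes (y axis) against distance in bp from the array-annotated start (x axis, negative upstream). There is 1 panel per gene, for the TEAD4 samples and the control sample, and lines join neighbouring probes. The solid horizontal line is 0, the array median taken as input, and the dashed line is 2-fold over it. The TEAD4 duplicates follow each other over Cavin4, Cavin3 and Cavin1, stay below 2-fold over Cav2, and the control sample has single high probes, up to 6.28 at Cavin3, beside probes near or below 0.

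Cavin4 encodes the muscle cavin, a partner of the other cavins in heart and skeletal muscle. Its top window, 5 probes at chr4:48685086-48685776 centred 775 bp inside the gene, was at 1.36 and 2.02 in TEAD4 samples 1 and 2, and at -0.62 in the control sample. The duplicates both lay above 2-fold while the control lay below input. The mean was 1.69 ± 0.47 (SD, n = 2), higher than input by limma with a standard error of 0.18 and an adjusted p of 0.000111. It was also higher than the control by 2.31 ± 0.32 (SE), adjusted p = 0.000136. Of the 18 windows of the gene, 10 reached 2-fold in both TEAD4 samples, in a stretch of 1956 bp with centres from -390 to 1090 bp. In that stretch the control ran from -0.62 to 2.07. Around the start the control was itself enriched: at the probe 261 bp inside the gene the TEAD4 samples had 1.04 and 1.84, and the control had 4.04. From 459 to 1090 bp the 5 probes of both TEAD4 samples were all above 1 and those of the control all below 0. The 3 probes upstream of the start are also annotated to Tmeff1, between 77974 and 78280 bp inside that gene.

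Cavin3 encodes the cavin that binds protein kinase C delta. Its top window, 6 probes at chr7:105354833-105355621 centred at 745 bp, was at 1.43 and 1.67 in the TEAD4 samples and at 1.13 in the control sample. All 3 samples were above 2-fold, the TEAD4 samples higher than the control. In the gene's top window by the uncentred ratios the control was at 0.49. The TEAD4 mean of 1.55 ± 0.17 (SD, n = 2) was higher than input by limma (SE 0.17, adjusted p = 0.000221). At its strongest probe, at 745 bp, the TEAD4 samples had 1.78 and 2.87 and the control -0.42. In all, 5 windows passed 2-fold in both TEAD4 samples, from 574 to 1160 bp and over 1504 bp of sequence. By limma the gene's window of lowest p against the control lay at -1588 bp, where the TEAD4 samples had -0.20 and -0.60 and the control 2.44, a difference of -2.84 ± 0.30 (SE), adjusted p = 5.58e-06. That window holds the control's highest probe in the family, at 6.28, and beside it one at 5.05, seen as a spike in the plot of single probes.

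Cavin1, which encodes the cavin needed to form caveolae, had its top window upstream of the start, 5 probes at chr11:100786509-100787353 centred at -276 bp. It was at 1.17 and 1.49 in the TEAD4 samples, and at 1.37 in the control sample, which lay between them. The mean of 1.33 ± 0.23 (SD, n = 2) was higher than input by limma (SE 0.15, adjusted p = 0.000357). The probe at -276 bp had 2.07 and 2.41 in the TEAD4 samples and -0.82 in the control. The TEAD4 samples thus peaked upstream of the start on a probe where the control was below input, and the control peaked inside the gene. At 602 bp the window had 0.59 and 0.22 in the TEAD4 samples and 2.83 in the control, a difference of -2.43 ± 0.27 (SE, adjusted p = 9.87e-06 by limma). Of the 24 windows of Cavin1, 2 reached 2-fold over input in both duplicates and 17 did so in the control sample, by centred ratios.

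Cavin2 encodes the cavin that shapes caveolar membrane. Its top window, 5 probes at chr1:51233280-51233996 centred at -78 bp, was at 0.82 and 1.45 in the TEAD4 samples and at -0.39 in the control sample. The first duplicate was under 2-fold there, and both were above the control. TEAD4 was higher than the control by 1.52 ± 0.32 (SE, adjusted p = 0.00984 by limma). The window that passed 2-fold in both samples lay downstream, 7 probes at chr1:51233563-51234485 centred at 304 bp, with 1.02 and 1.02 in the TEAD4 samples and 0.44 in the control. It passed the 2-fold mark narrowly and was higher than input with a standard error of 0.16 and an adjusted p of 0.0037. The duplicates differed most upstream: the probe at -201 bp had -0.36 in TEAD4 sample 1 and 1.94 in TEAD4 sample 2, with 0.41 in the control.

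Cav3, the muscle caveolin, whose human mutations cause muscle disease, had its top window just inside the gene, 5 probes at chr6:112425348-112425876 centred at 90 bp. It was at 1.06 and 1.24 in the TEAD4 samples and at 0.86 in the control sample. The control lay below both duplicates but close to the lower one. The mean of 1.15 ± 0.13 (SD, n = 2) was higher than input (SE 0.16, adjusted p = 0.00141 by limma). The excess over the control that limma called was elsewhere, at -3947 bp, where the TEAD4 samples had 0.19 and 0.79 and the control -0.89. At that window, with a difference of 1.38 ± 0.31 (SE, adjusted p = 0.0107 for the gene by limma), the control was further from input than either duplicate.

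Cav1, which encodes the main structural caveolin outside striated muscle, had a top window of 6 probes at chr6:17256136-17256954 centred at 153 bp. It was at 0.56 and 0.96 in the TEAD4 samples and at 1.49 in the control sample, which lay above both. The mean of 0.76 ± 0.29 (SD, n = 2) was under 2-fold and higher than input by limma (SE 0.17, adjusted p = 0.0369). The call was lost with normexp background correction, and with neighbours within 1000 bp the gene was called lower than input instead. Against the control, its window of lowest p lay at -1060 bp, with a difference of -1.45 ± 0.28 (SE, adjusted p = 0.00645).

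Cav2 encodes the partner with which Cav1 forms hetero-oligomers. Its top window, 3 probes at chr6:17233315-17233813 centred at 2443 bp, was at 0.28 and 0.08 in the TEAD4 samples and at -0.29 in the control sample. No window of Cav2 reached 2-fold in either TEAD4 sample. At 114 bp the TEAD4 samples had 0.00 and 0.02 and the control had 2.29, its highest window, a difference of -2.28 ± 0.28 (SE, adjusted p = 8.68e-05 by limma). Against input, the window of lowest p was below it, at -4819 bp, with -1.02 and -0.51 in the TEAD4 samples and -0.22 in the control (mean -0.76, SE 0.18, adjusted p = 0.0404 by limma). That call was lost with normexp background correction, with neighbours within 1000 bp and with at least 2 probes a window. Its neighbour Cav1 had a window above input in both samples at its start, but whether the neighbours differ was not tested.

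**Figure D2:**
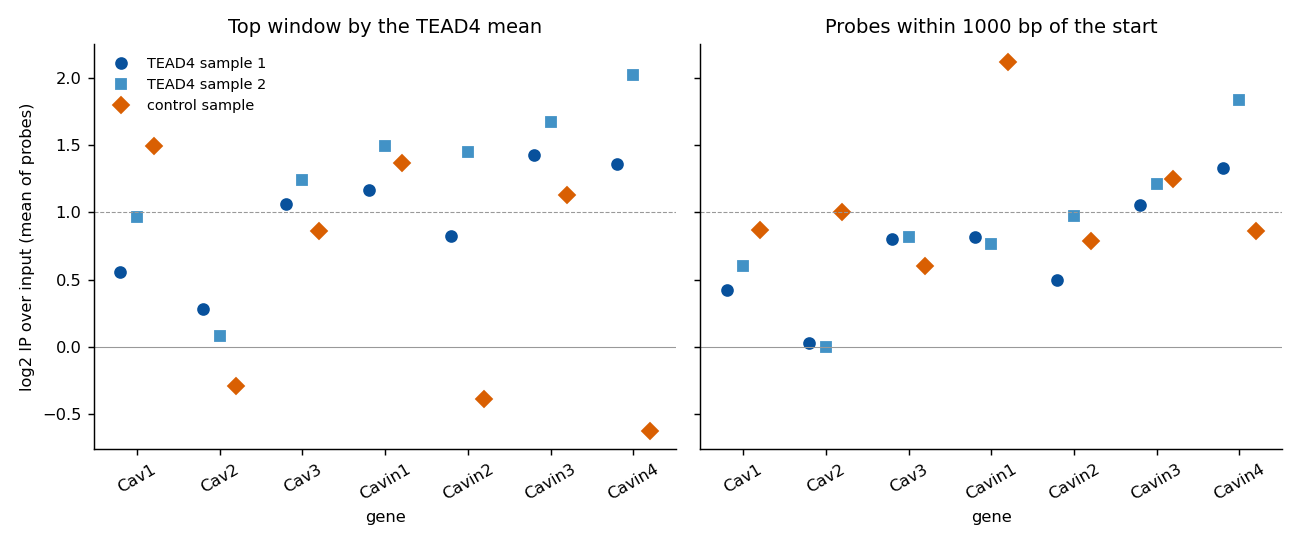
Log2 IP over input (y axis) of each gene (x axis) in its top window by the TEAD4 mean (left panel) and over probes within 1000 bp of the annotated start (right panel), 1 point per sample with the TEAD4 samples left of the control sample; the dashed line is 2-fold over input. In the top window the control sample lies below both TEAD4 samples for Cavin4, Cavin2, Cavin3, Cav3 and Cav2, between them for Cavin1 and above them for Cav1. That window was chosen by its TEAD4 values, which favours a control below them. In the right panel, set by position, the control lies below both TEAD4 samples only for Cavin4 and Cav3.

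Counted over the family, limma against input called 6 of the 7 genes higher, where 23.9% of all genes were called, and Cav2 lower, where 11.8% were. Against the control, limma called Cavin4, Cavin2 and Cav3 higher (12.4% of all genes were) and Cavin1, Cavin3, Cav1 and Cav2 lower (81% of all genes were). By size alone, Cav3, Cavin1, Cavin2 and Cavin4 had a window where each duplicate exceeded the control at least 2-fold, as did 29.9% of all genes. Cav1, Cav2, Cavin1 and Cavin3 had one where each duplicate was 2-fold or more under it, as did 81.8%, so Cavin1 had both. Cavin4 alone of the 7 had a window where each duplicate was 2-fold above both input and control, a demand added after seeing the data that 2.55% of all genes met. The calls against the control changed with the scale given to its ratios. With all arrays of a design brought to 1 median absolute deviation, limma called 0 of the 7 genes higher than the control with adjustment and 4 at an unadjusted p under 0.05, and 0.774% of all genes were called higher. With the deposited ratios, which are not centred, the control's median lies at -0.64 and -0.55 on the array designs. Of all genes, 50.4% were then called higher and 46% lower, and 5 members were called higher, Cavin1 and Cav1 among them. In the other alternatives run Cavin4 was called higher than the control each time, while Cav3, Cavin2 and Cavin3 each changed direction in at least 1 of them.

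A region set by the annotation, not by the signal, gave the same order at its ends, with Cavin4 first and Cav2 last. Over the 9 probes within 1000 bp of the annotated start, Cavin4 was at 1.33 and 1.84 in the TEAD4 samples and at 0.86 in the control sample. Cavin3, over 12 probes, was at 1.05 and 1.21, with 1.25 in the control. Cav3, over 9 probes, was at 0.80 and 0.81, with 0.60 in the control. These are the genes for the muscle cavin, the protein kinase C delta binding cavin and the muscle caveolin. At this width of region their TEAD4 values did not overlap with each other. Cavin1, over 11 probes, was at 0.81 and 0.77, with 2.12 in the control. Cavin2, over 13 probes, was at 0.50 and 0.98, with 0.79 in the control. Cav1, over 10 probes, was at 0.43 and 0.60, with 0.87 in the control. The duplicates of Cav3 and Cavin1, of Cavin1 and Cavin2, and of Cavin2 and Cav1 overlapped, so these neighbours in the order did not differ beyond their spread. Cav2, over 10 probes, was at 0.03 and -0.00, with 1.00 in the control, apart from all the others, and did not pass the test against input (adjusted p = 0.955 by limma). Between these ends the order changed with the width of the region. Within 500 bp of the start the TEAD4 mean of Cavin3 was 0.78, below those of Cav3 (1.19), Cavin2 (1.03) and Cavin1 (0.89).

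Set among the 15848 genes with such a region, the TEAD4 mean of Cavin4 was at percentile 99.9, that of Cavin3 at 99.4 and that of Cav3 at 97.3. Cavin1, Cavin2 and Cav1 were at 97.1, 96.3 and 89.6, and Cav2 was at 33.6. Limma called 6 of the 7 higher than input, against 24.5% of all genes, with adjusted p between 1.98e-08 for Cavin1 and 0.0038 for Cav1. For Cavin1, alone of the family on design 2, the fit used only the pooled variance and gave its own spread no weight. Its start-region p-values therefore cannot be ranked with those of the genes on design 1. Against the control limma called only Cavin4 higher, by 0.72 ± 0.23 (SE, adjusted p = 0.0104), where 6.15% of all genes were. Over the probes within 500 bp of the start that excess was gone, with a TEAD4 mean of 1.46 for Cavin4 and 1.49 in the control. Cavin1 was called lower than the control, at a difference of -1.32 ± 0.22 (SE, adjusted p = 6.49e-09), and so was Cav2, at -0.99 ± 0.21 (SE, adjusted p = 0.00037). That held for 61.4% of all genes. The other 4 did not pass the test against the control, with differences between -0.36 for Cav1 and 0.20 for Cav3.

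**Figure D3:**
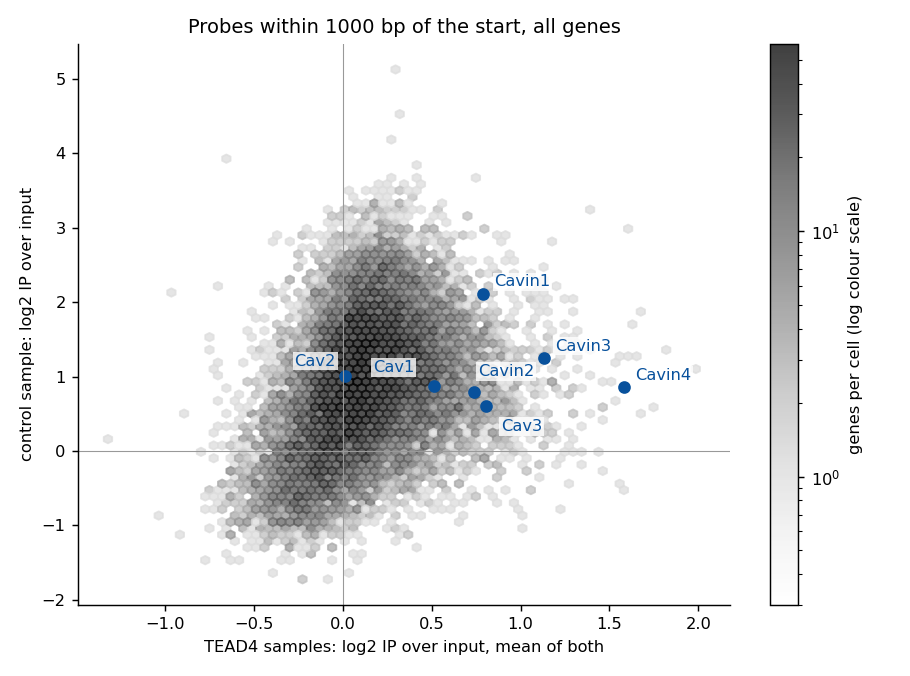
Each of 15848 genes by its log2 IP over input within 1000 bp of the annotated start, the mean of both TEAD4 samples on the x axis and the control sample on the y axis; grey cells count genes on a log colour scale and blue points are the 7 named genes. Cavin4 and Cavin3 lie at the right edge of the cloud at TEAD4 means of 1.58 and 1.13, Cav2 lies in its middle, and on the control axis the 7 genes lie within the range of the other genes.

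Of the 225 probes of the family, 24 (10.7%) reached 2-fold over input in each duplicate, and of all 471870 probes 1.25% did. In the control sample 31.1% of the family's probes did by centred ratios, and 31.2% of all probes. In log2 units neighbouring probes were closer to each other in the TEAD4 samples than in the control, but the control's ratios were wider too. Over the probes of design 1 the median absolute deviation was 0.33 and 0.34 in the TEAD4 samples and 1.03 in the control. The median steps followed these widths. Between the 185 pairs of neighbouring probes at most 300 bp apart, the median step was 0.29 and 0.34 in the TEAD4 samples and 1.06 in the control. Over all 365800 such pairs on the arrays it was much the same, 0.29 and 0.35 in the TEAD4 samples and 1.05 in the control. Across the family's pairs the correlation was 0.72 and 0.74 in the TEAD4 samples and 0.26 in the control, as a description of neighbours that share fragments. Over all pairs it was 0.57 and 0.49 in the TEAD4 samples and 0.39 in the control.

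The duplicates were more closely correlated at the cavins than at the caveolins. The order was not that of the signal, as Cavin4, with the largest ratio, came after Cavin3 and Cavin1. Across the probes of a gene the correlation of TEAD4 sample 1 with sample 2 was 0.83 for Cavin3, 0.83 for Cavin1, 0.73 for Cavin4 and 0.60 for Cavin2. It was 0.54 for Cav3, 0.43 for Cav1 and 0.37 for Cav2. The correlation of the TEAD4 mean with the control lay between -0.08 for Cavin1 and 0.16 for Cavin4 at the cavins. At Cav3, Cav2 and Cav1 it was 0.22, 0.31 and 0.50. These correlations run over 18 to 40 neighbouring probes that share an array, and are descriptions only.

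Genes whose proteins work with caveolins and cavins were listed as partners: 24 genes for the EHD ATPases, pacsins, dynamin 2, filamin A, flotillins, and muscle and signalling proteins found at caveolae or T-tubules. A window was available for 20 of them, and Ehd2, Bves, Nos1 and Cd36 had none. A 2-fold window in each duplicate was found at 5 of the 20, against 5.19% of all genes, and the median top window was 0.66 over the 20 and 0.40 over all genes. The median number of windows was 26.5 over the 20 and 25 over all genes. Ehd1, which encodes an ATPase of the family that gathers at the caveolar neck, had 1.63 and 1.62 in the TEAD4 samples and 0.23 in the control sample at 1647 bp. It was the only partner with a window 2-fold above both input and the control, while by limma its window of lowest p lay below the control, at a difference of -3.69 (adjusted p = 7.01e-07). Dysf, which encodes the membrane repair protein dysferlin, had 1.39 and 1.26, with 0.56 in the control. Pacsin3, which encodes the muscle pacsin, had 1.04 and 1.45, with 0.85 in the control. Both exceeded the control in each duplicate at these windows, but the windows were chosen by their TEAD4 values, which favours that. By limma both were called lower than the control elsewhere, with differences of -1.54 for Dysf and -2.02 for Pacsin3. Flot1, which encodes flotillin 1, had 1.23 and 1.45, with 2.42 in the control. Bin1, which encodes the protein that curves T-tubule membrane, had 1.08 and 1.11, with 1.08 in the control. The control lay above both duplicates at Flot1 and level with the lower one at Bin1.

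By limma, 11 of the 20 partners were called higher than input (23.9% of all genes were) and Ror1 lower (11.8%). Against the control, Pacsin2, Bin1 and Slc2a4 were called higher (12.4% of all genes) and 17 lower (81%). By size, 8 had a window 2-fold or more above the control in each duplicate (29.9% of all genes) and 19 had one as far below it (81.8%). Within 1000 bp of the start, 9 of 19 partners were higher than input (24.5% of all genes), Dysf was higher than the control (6.15%) and 16 were lower (61.4%).

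**Figure D4:**
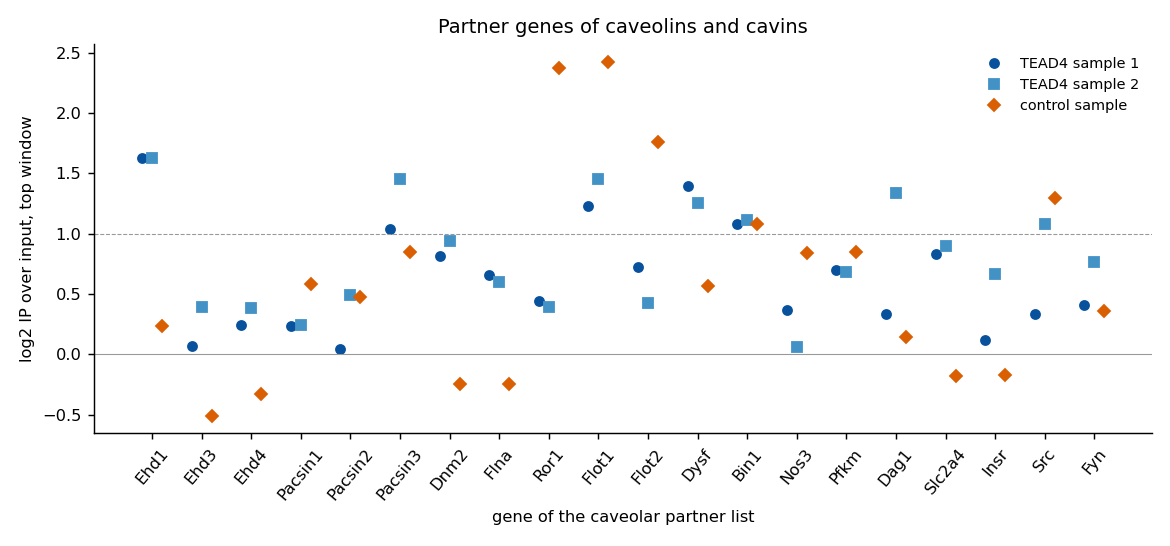
Log2 IP over input in the top window by the TEAD4 mean (y axis) of the 20 partner genes with a window (x axis), 1 point per sample with the TEAD4 samples left of the control sample; the dashed line is 2-fold over input. Ehd1 stands highest at 1.63 and 1.62 in the TEAD4 samples, and Flot1 and Ror1 have the highest control values, 2.42 and 2.37.

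The genes whose top window was most like that of Cavin4 over the 3 samples, by the straight-line distance between their log2 values, were Ppp6c, P2rx5 and Ackr3. Ppp6c, which encodes a protein phosphatase subunit, had 1.33 and 1.94 in the TEAD4 samples and -0.69 in the control, a distance of 0.11. P2rx5, which encodes an ATP-gated ion channel, had 1.49 and 1.98 in the TEAD4 samples and -0.53 in the control, a distance of 0.17. Ackr3, an atypical chemokine receptor gene that the array lists as Cxcr7, had 1.19 and 1.83 in the TEAD4 samples and -0.77 in the control, a distance of 0.30. These 3 values are those by which the genes were chosen, so their likeness is no finding.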

How the data were processed

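Immunoprecipitated and input DNA of 2 TEAD4 samples and 1 control sample were measured on 6 Agilent promoter arrays. Per the file headers, the deposited intensities come from Feature Extraction 9.5.3.1 of Agilent, with background and dye steps applied. The authors' deposited log10 ratios are IP over input from those intensities, uncentred, with medians per array from -0.191 to 0.00276. No source used here gives the genome build of the probes.

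Ratios of IP to input were recomputed from these intensities as log2 values, and each array's median was subtracted, without control spots and flagged probes. Windows (within 500 bp, at least 3 probes, 428020 in all) were fitted within each design with limma 3.58.1 in R 4.3.3, against input and against the control. P-values are two-sided, combined per gene by Simes, adjusted by Benjamini-Hochberg over 16533 genes and read at 0.05. An adjusted p printed beside a window thus belongs to the gene over all its windows. The difference and SE beside it are those of the gene's window of lowest p. There was 1 residual degree of freedom, so the test leaned on a variance pooled over windows, and the lone control sample was given the spread of the duplicates. The fit was tested on simulated data in which the control had the spread of the duplicates and neighbouring probes were unrelated. That simulation could not check the calls against the wider control measured here.

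Names came from a RefSeq table of GRCm38.p6, and promoters from the same build. The members, the partner list and the tests were chosen with earlier results of these data known. Named were all members, partners that passed 2-fold over input, other genes on the members' probes and the 3 genes nearest to the member with the largest top window. Ror1, Pacsin2 and Slc2a4 were named after their values were seen, since they make up small counts. Alternatives covered background correction, loess, scaling, centring, window width, dim probes, probes per window, fold threshold and leaving out each duplicate.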

Additional observations from a re-analysis of the deposited data

How the results depend on the processing

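Shares of all genes under the same setting stand in brackets. With normexp background correction, 3 of the 7 members (Cavin1, Cavin2 and Cavin4) and 2 partners were at least 2-fold over input in both TEAD4 samples (3.35%), against 5 and 5 (5.19%). With neighbours within 1000 bp, 2 members (Cavin3 and Cavin4) and 2 partners were (2.21%). At 3-fold, 0 members and 1 partner, Ehd1, were (0.78%), and at 1.5-fold 10 partners (20.2%). With a common median absolute deviation 8 partners were (15.3%). Leaving out 1 TEAD4 sample gave 5 to 6 members and 5 to 7 partners (8.05% to 15.5%). Members at least 2-fold above the control, 4 here (29.9%), numbered 7 with the uncentred deposited ratios (75%), 2 with neighbours within 1000 bp (13.1%), 7 at 1.5-fold (63.4%), 2 at 3-fold (4.75%) and 5 to 5 without 1 TEAD4 sample (42.3% to 46%). Members called higher than the control by limma, 3 here, numbered 0 with a common median absolute deviation (4 unadjusted), 5 with the uncentred ratios and 1 over the start region (6.15%). Members above both input and the control, 1 here (2.55%), numbered 3 with normexp (2.51%), 5 with a common median absolute deviation (9.04%), 3 with the uncentred ratios (3.66%), 0 with neighbours within 1000 bp (0.968%) and 2 to 2 without 1 TEAD4 sample (3.87% to 8.26%). Cavin4 was among them in each of these settings but the wider window.

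The limma count over input, 6 of 7 members, was 5 or 6 in the alternatives run. Cav1 was not called higher with normexp or with the wider window, where it was called lower. The lower call of Cav2 against input was absent with normexp, with the wider window and with at least 2 probes a window. Over all genes, the calls against the control were 12.4% higher and 81% lower, and 1.98% and 4.86% with normexp, 20.8% and 70.1% with loess, 0.774% and 0.206% with a common median absolute deviation, and 50.4% and 46% with the uncentred ratios. The start region of Cav2, 0.01, was -0.0483 within 500 bp, -0.077 with normexp and between -0.00402 and 0.0282 without 1 TEAD4 sample. For all of these the cause was not tested. Of the other values of single members, 44 top windows and 38 start regions moved by less than the SD of the duplicates, and 12 and 15 moved by more. These counts are no measure of stability. Leaving out 1 TEAD4 sample always moves a start-region mean by less than that SD, and leaving out dim probes changed none of these values.

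No paired analysis was possible because the control group holds 1 sample, so the groups share fewer than 2 replicate numbers. Limma without a TEAD4 sample was not run, as it leaves no residual degree of freedom. The control's IP signal, near 2 times the local background, limits every comparison with it.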
